A study of Bos taurus with 30 samples.

Results

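The miRNAs described here are bta-miR-451, bta-miR-144 and bta-miR-486, 3 of the 1030 mature bovine miRNAs in the deposited table. They were chosen by name, as miRNAs that red blood cells hold in large amounts, with earlier results of these data known but with no measured value in the rule. Of the 1030 miRNAs, 863 had a read in at least 1 library and 476, including all 3 named here, had enough reads to be tested. The question was which of the 3 moved with one another, and with miRNAs of blood and vessel cells, in a tissue that holds blood.

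Tissue was the arcuate nucleus (ARC) of the hypothalamus, the region that receives cues on metabolic status, taken from 30 Holstein-Friesian bull calves at 12 weeks of age. From 2 weeks of age, the 15 calves on the high plane of nutrition (HI) received 1.5 kg of milk replacer in 10 litres per day with concentrates ad libitum. The 15 calves on the moderate plane (MOD) received 0.5 kg of milk replacer in 4 litres per day with 0.5 kg of concentrates. Each calf gave 1 small RNA library, so that the replicates were separate animals, and pieces were rinsed in buffered saline before freezing. The sources used here do not mention perfusion of the vessels.

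Mature red blood cells of mammals have lost their nucleus but keep miRNAs made by their precursors. miR-451 and miR-144 are made from 1 transcript that the erythroid factor GATA1 switches on, and miR-451 is unusual in being cut by AGO2 rather than by Dicer. miR-486 lies within the gene for ankyrin 1, a protein of the red cell membrane skeleton that muscle also expresses, and is abundant in red cells and in striated muscle. All 3 are therefore used as signs of red cells in blood and plasma samples. In the RefSeq annotation of the bovine assembly ARS-UCD2.0, MIR451 (gene 100313380) and MIR144 (gene 100313254) were direct neighbours, between ERAL1 and FLOT2. MIR486 (gene 100313381) overlapped ANK1.

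Levels are given as CPM, the reads of a miRNA per 1000000 reads after the authors' scaling of each library, and the worth of 1 read was recovered from the steps between values. Reads on miRNAs ranged from 6291376 to 21083250 per library, with medians of 8512614 in HI calves and 8811432 in MOD calves. The libraries fell into 21 shallower and 9 deeper ones, of which 12 and 3 were from HI calves. A floor of 3 reads was worth between 0.138 and 0.558 CPM, which covers counting error only. The 9 calves with the lowest animal codes, 7 HI and 2 MOD, are set apart below because earlier work on these values found that many miRNAs differ along the codes. Neither a run, a date nor a farm is given for them in the labels. The neuronal miR-9-5p, at a median of 44294 CPM, and miR-124a, at 6356 CPM, were present in every library. The pituitary-rich miR-375 ranged from 75.7 to 47575 CPM.

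miR-486 was by far the most abundant of the 3. Its level was 20971 CPM in the lowest calf, 28773 CPM at the median and 40132 CPM in the highest calf, which ranked it 6 of 476 by abundance. It took between 1.47% and 4.67% of all reads on miRNAs. miR-451 ranged from 134.6 to 1588 CPM with a median of 266.0 CPM, rank 142. miR-144 ranged from 4.20 to 42.9 CPM with a median of 9.32 CPM, rank 335, and rested on 36 to 745 reads per library. The order of the levels was the same in each of the 30 calves, with no overlap between the 3 miRNAs. Levels of different miRNAs are not corrected here for the uneven capture of sequences in small RNA libraries.

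Their spread between calves had another order. The SD of the log2 level was 0.83 for miR-451, 0.80 for miR-144 and 0.22 for miR-486, against a median of 0.37 over the 476 miRNAs. Ranked from the widest spread, miR-451 was 38, miR-144 was 43 and miR-486 was 408. The highest calf exceeded the lowest by 11.8-fold for miR-451 and 10.2-fold for miR-144, but by only 1.91-fold for miR-486. Of the 15 other miRNAs whose median lay within 2-fold of that of miR-486, 11 varied more than it did. For miR-451, 6 of 66 miRNAs of like level varied more, and for miR-144, 2 of 66.

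**Figure D1:**
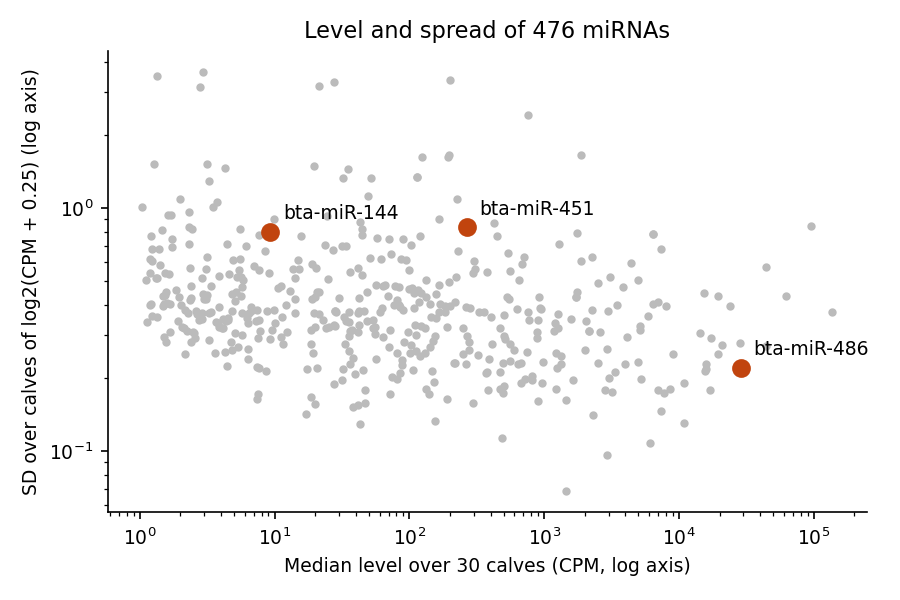
Each point is 1 of the 476 tested miRNAs, with its median level over 30 calves in CPM on the horizontal log axis and the SD over calves of log2(CPM + 0.25) on the vertical log axis. miR-451 and miR-144 lie among the more variable miRNAs at SDs of 0.83 and 0.80, and miR-486 lies low among the abundant ones at 0.22.

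A pair of calves carried much of the spread of miR-451 and miR-144. HI calf A42931 had 1588 CPM of miR-451 and 41.0 CPM of miR-144, and MOD calf A41971 had 1232 and 42.9 CPM. In the other 28 calves, miR-451 lay between 134.6 and 453.8 CPM. Without both calves the SD of log2 miR-451 was 0.56, and the spread ranks of miR-451, miR-144 and miR-486 were 91, 83 and 403. In the same calves miR-486 was near its median, at 29873 CPM in A42931 and 24909 CPM in A41971, which is 1.04 and 0.866 times the median.

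The diets were compared first, as the study was designed to do. In HI calves, miR-451 was 134.6 CPM at the lowest, 280.1 at the median and 1588 at the highest, with a mean of 354.1 ± 353.2 (SD, n = 15). In MOD calves it was 139.2, 260.2 and 1232 CPM, with a mean of 330.9 ± 270.9 (SD, n = 15). The groups overlapped almost entirely, with 8 of 15 HI calves above the MOD median and 6 of 15 MOD calves above the HI median. The HI minus MOD difference was 0.04 on the log2 scale (SE 0.30, 95% interval -0.56 to 0.65, adjusted p = 0.985, limma with Benjamini-Hochberg adjustment over 476 miRNAs).

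miR-144 had the same shape. Its level was 4.20, 9.22 and 41.0 CPM at the lowest, median and highest HI calf, and 4.66, 9.42 and 42.9 CPM in MOD calves, with 7 of 15 HI calves above the MOD median and 8 of 15 MOD calves above the HI median. Both means were 11.7 CPM, with SDs of 8.92 and 9.49, and the log2 difference was 0.02 (SE 0.29, interval -0.56 to 0.61, limma adjusted p = 0.985). The sign of this difference turned under library size scaling (-0.020) and in 3 other alternatives, so that no direction is given.

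miR-486 was 20971, 29873 and 39363 CPM at the lowest, median and highest HI calf, and 23300, 28141 and 40132 CPM in MOD calves. Its means were 29876 ± 4698 in HI and 29219 ± 4611 in MOD calves (SD, n = 15 each). The log2 difference was 0.03 (SE 0.08, interval -0.14 to 0.20, limma adjusted p = 0.984), and its sign also turned under library size scaling (-0.013). Of 15 HI calves 11 lay above the MOD median, and of 15 MOD calves 4 lay above the HI median. Its interval lay within a 1.5-fold difference both ways, whereas those of miR-451 and miR-144 passed 1.5-fold at their upper ends.

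Of these, 0 of the 3 miRNAs were called between the diets, and the share called among all tested was 0% (0 of 476, limma, adjusted p under 0.1 and fold change above 1.5). Without adjustment, 21 of the 476 had a p under 0.05 in limma. On the recovered reads, edgeR's quasi-likelihood test called 0 and DESeq2 called 1, miR-2419-3p. The paper, which used edgeR, reports that same miRNA as the only miRNA that differed between the diets. Permutation tests of the diets gave p = 0.893 for miR-451, 0.945 for miR-144 and 0.713 for miR-486. Within the shallower libraries the log2 differences were -0.30, -0.38 and 0.04, and within the deeper ones, with 3 HI and 6 MOD calves, they were 1.16, 1.15 and -0.02 (exact permutation p = 0.143, 0.107 and 0.869). The lone high HI calf A42931 is among those 3. Without A42931 the difference of miR-451 over all calves was -0.13, and without A41971 it was 0.20. The sign also turned without MOD calves A47874 (-0.026), A51980 (-0.013) or A61965 (-0.026), so that no direction is given for miR-451 either.

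**Figure D2:**
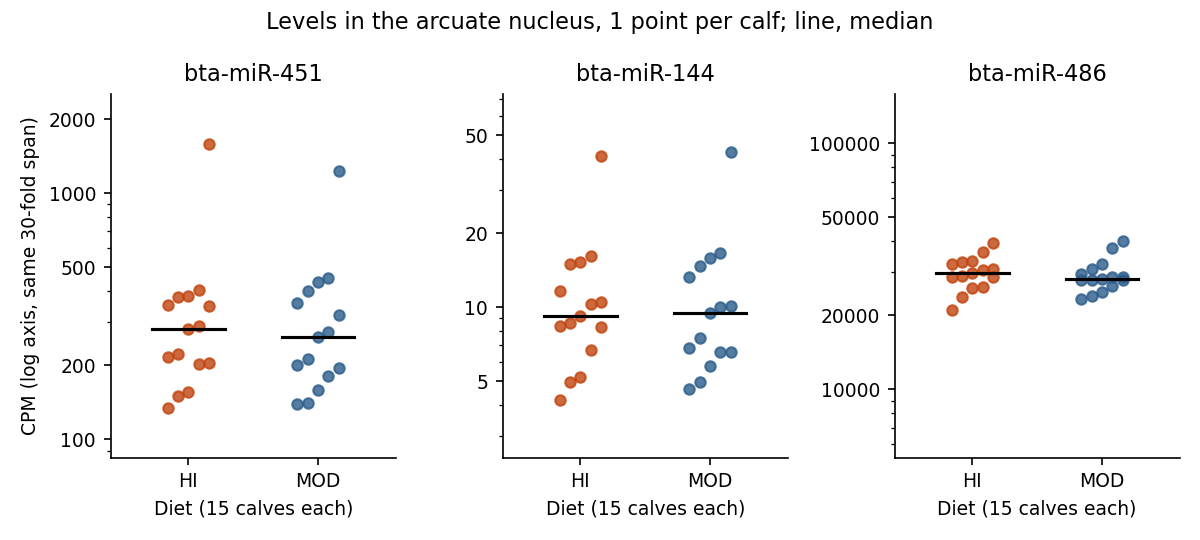
Level of each miRNA by diet in CPM, on log axes that span the same fold in each panel, with 1 point per calf (15 HI, 15 MOD) and a line at the median. The diets overlap in all 3 panels, 1 calf of each diet stands far above the rest for miR-451 and miR-144, and the points of miR-486 lie within a 1.91-fold range.

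Between deeper and shallower libraries the log2 differences were 0.34 for miR-451 (SE 0.33, limma adjusted p = 0.921), 0.13 for miR-144 (SE 0.32, 0.990) and -0.05 for miR-486 (SE 0.09, 0.960). None of the 3 passed the test, and 0% of the 476 miRNAs did.

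Of the 3 pairs of miRNAs, 1 passed the test over calves. miR-451 and miR-144 rose and fell together, with Pearson's r = 0.955 and Spearman's rho = 0.929 on log2 levels over 30 calves (permutation p = 1e-05 for both, the smallest that 100000 resamples can give, adjusted p = 3e-05 over 3 pairs). Without A42931 and A41971, r was 0.913, so that the relation did not rest on them. It was 0.948 in HI calves, 0.963 in MOD calves, 0.948 in the shallower libraries and 0.979 in the deeper ones. In the 9 calves of the lowest codes, where miR-451 spanned only 195.7 to 379.4 CPM, r was 0.703 (exact permutation p = 0.0295, adjusted p = 0.0885). There, rho was 0.817 (exact permutation p = 0.0108, adjusted p = 0.0324).

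Because miR-144 followed miR-451 closely, their ratio was narrow. There were 19.6 reads of miR-451 per read of miR-144 in the lowest calf, 27.9 at the median and 40.3 in the highest, and the SD of the log2 ratio was 0.25. In the calves with the most miR-451 it was 38.7 in A42931, near the top of the range, and 28.7 in A41971, near the median. The ratio of miR-486 to miR-451 instead ran from 18.8 in A42931 and 20.2 in A41971 to 232.8 in MOD calf A61965, with a median of 107.2 and an SD of 0.90 on the log2 scale.

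miR-486 was not shown to move with either. Its r with miR-451 was -0.169 (rho -0.261, permutation p = 0.374 and 0.163, adjusted p = 0.561 and 0.244). Its r with miR-144 was -0.0935 (rho -0.129, permutation p = 0.625 and 0.499). The sign was not the same everywhere: r with miR-451 was 0.0834 in HI and -0.458 in MOD calves (permutation p = 0.0902 in MOD), and the difference between the diets was not tested.

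**Figure D3:**
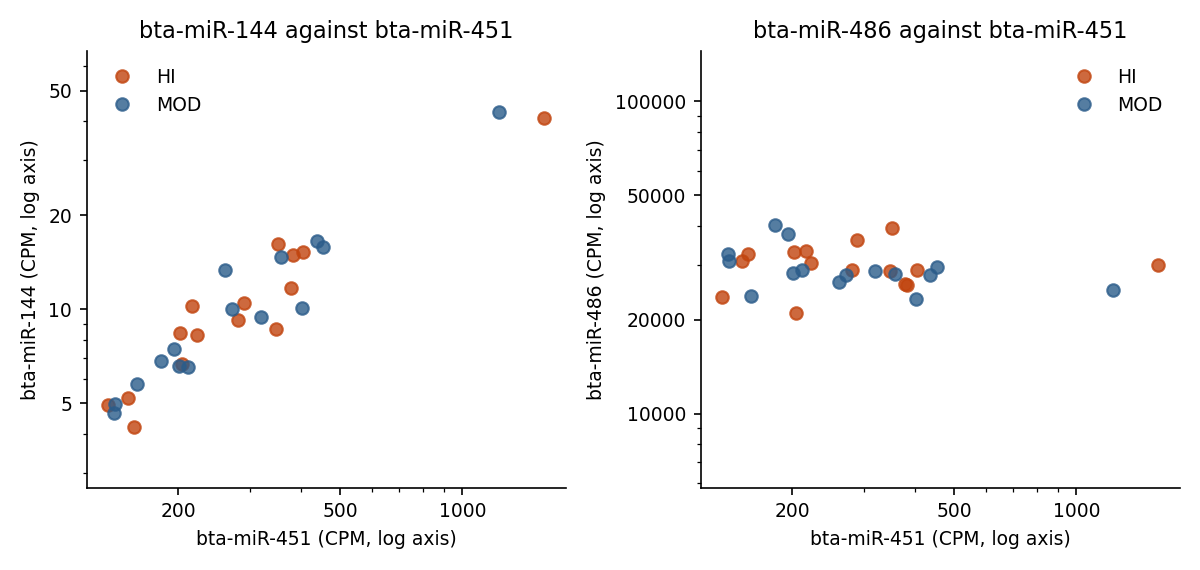
miR-144 (left) and miR-486 (right) against miR-451 in the same 30 calves, all in CPM on log axes, coloured by diet. miR-144 climbs with miR-451 over its whole range (r = 0.955), while miR-486 shows no such climb (r = -0.169), including in the pair of calves at 1588 and 1232 CPM of miR-451.

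The same question was put to every other miRNA in 1 fit with diet in the model. Of 475 miRNAs, 8 (1.68%) rose with miR-451 and 4 (0.842%) fell at an adjusted p under 0.1. These 12 became 3 at library size scaling, 104 with the code class in the model, 139 without HI calf A37824 and 2 without A42931 and A41971, so the background is loosely set. Against it, miR-144 ranked first of 475, with a slope of 0.91 log2 units per log2 unit of miR-451 (SE 0.06, interval 0.80 to 1.03, limma adjusted p = 2.11e-13). It was called in each of 7 settings and with each of the 30 calves left out. miR-486 ranked 309, with a slope of -0.05 (SE 0.05, interval -0.15 to 0.06, adjusted p = 0.575), and was called in none of them. The sizes of these slopes cannot be set against each other, because the SD of log2 miR-486 was 0.22 against 0.83 for miR-451. With so narrow a spread, even a perfect correlation would leave the slope of miR-486 far below that of miR-144. In tissue, fewer cells of a type and less RNA per cell cannot be told apart in these values.

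The other miRNAs most like miR-451 were few. miR-223, which is abundant in neutrophils and monocytes, was the second most like (r = 0.787 across 30 calves) and rose with a slope of 0.88 (SE 0.13, limma adjusted p = 3.48e-05). It was low, at 0.650 CPM in the lowest calf and 1.61 CPM at the median, with 10.1 CPM in A41971 and more than that in A42931. Without those 2 calves its slope was 0.65 with an adjusted p of 0.124, so that its call rested on them. Next came miR-10174-3p and miR-23b-3p, both at r = 0.688, and at 0.562 without A42931 and A41971. Their values differed by 0.514% to 0.874% in every calf, so that these rows may count the same reads. miR-16a, a broadly expressed miRNA that is plentiful in red cells, followed at r = 0.587 and rose with a slope of 0.22 (limma adjusted p = 0.0388), but at library size scaling its slope was 0.13 (adjusted p = 0.407). Without A42931 and A41971 its slope was 0.32 and its r 0.585, with an adjusted p of 0.124. miR-144 had miR-451, miR-223, miR-23b-3p, miR-10174-3p and miR-140 as its nearest, at r = 0.955, 0.789, 0.581, 0.581 and 0.553. Without A42931 and A41971 the last 3 had r = 0.393, 0.393 and 0.313 and ranked 21, 22 and 39, so that their place rested on those calves.

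miR-486 had other neighbours. Of 475 miRNAs, 15 (3.16%) rose with it and 12 (2.53%) fell, and neither miR-451 (slope -0.65, SE 0.69, limma adjusted p = 0.555) nor miR-144 (-0.34, SE 0.67, 0.768) was among them. Its 5 most like were miR-1842 (r = 0.666), miR-2339 (0.639), miR-107 (0.621), miR-2398 (0.607) and miR-410 (0.600). Without A37824 and A38765 their r ranged from 0.504 to 0.600 and their ranks from 2 to 12. miR-107 lies within a gene of coenzyme A synthesis, PANK1, and miR-410 belongs to a large imprinted cluster active in brain. Ranked by likeness to miR-486, miR-144 was 298 and miR-451 was 339 of 475. The count of 27 depended on the scaling, with 327 called at library size scaling and 5 with DESeq2's size factors.

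**Figure D4:**
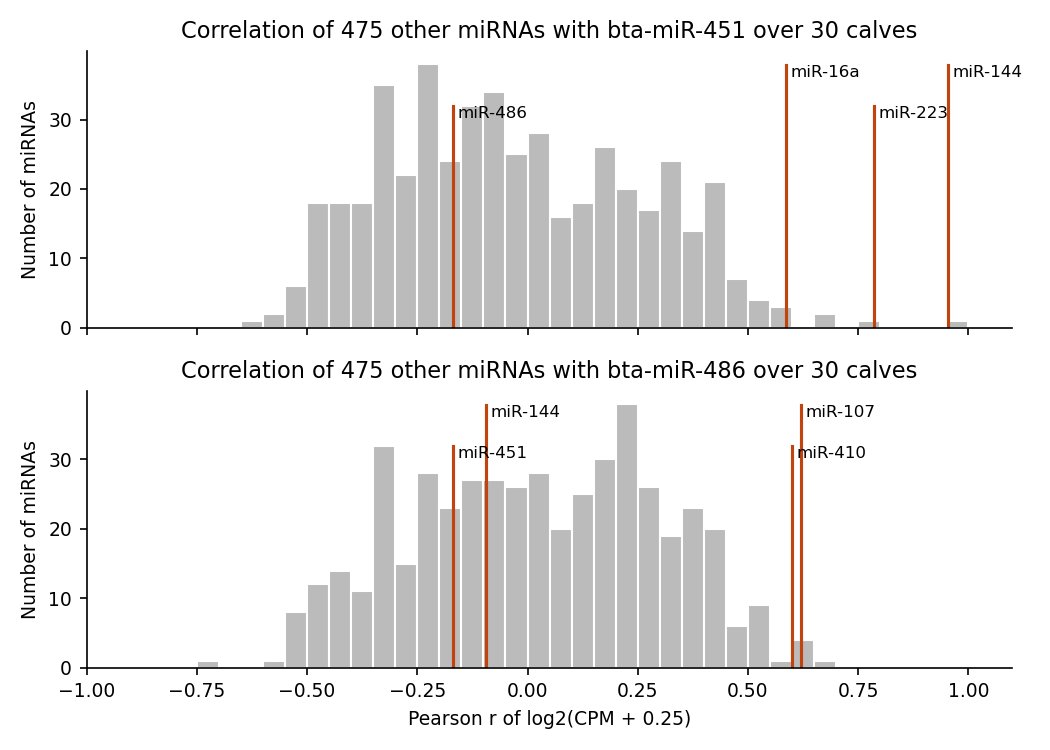
Histograms of Pearson's r over 30 calves between log2(CPM + 0.25) of 475 other miRNAs and that of miR-451 (top) or miR-486 (bottom), with lines at named miRNAs. miR-144 stands alone at 0.955 from miR-451 with miR-223 next at 0.787, and miR-451 and miR-144 fall in the body of the distribution for miR-486.

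Lists of miRNAs of other cell types were set beside the 3, each summarised by a score, the mean of centred log2 levels. Among 10 red cell companions, miRNAs such as miR-92a and miR-16b that red cells hold but many cells make, 1 rose with miR-451 (miR-16a), against 1.68% of all miRNAs tested. A single member called in so short a list is no result about the list. Their score had r = 0.505 with miR-451 (permutation p adjusted over 18 relations 0.0175), but 0.0580 at library size scaling and 0.434 without A42931 and A41971. miR-92a, the most abundant at a median of 5143 CPM, had r = 0.212 with miR-451, and miR-425-5p, the least like, had r = -0.0815. The summed level of the list ranged from 9761 to 21358 CPM in HI and from 10183 to 16800 CPM in MOD calves.

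Of 8 leukocyte miRNAs, 1 rose with miR-451 (miR-223), against 1.68% of all miRNAs tested. The leukocyte score had r = 0.731 with miR-451 (adjusted permutation p = 0.00036), 0.561 without the pair of high calves and 0.349 at library size scaling. Members were not scaled to equal spread, and miR-223 had both the widest spread (SD 0.93) and the highest r of the 8. The score thus leans on miR-223. The median r of the 8 members was 0.284, and the next highest was 0.420 for miR-155. The lymphocyte-rich miR-150 had r = -0.0867 with miR-451, miR-342 had -0.182, and miR-142-5p, the most abundant at a median of 1231 CPM, had 0.327. The summed level ranged from 2926 to 4715 CPM in HI and from 3104 to 4486 CPM in MOD calves.

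For vessel cells, the endothelial miR-126-3p rose with miR-451 (slope 0.25, limma adjusted p = 0.0626) and fell with miR-486 (slope -0.87, adjusted p = 0.0840), while miR-126-5p, from the same hairpin, passed neither test. Both calls were lost at library size scaling, with slopes of 0.18 and -0.22 (adjusted p = 0.407 and 0.309). Without A42931 and A41971 the slopes were no smaller, at 0.34 and -0.89, but with 28 calves their adjusted p was 0.124 and 0.111. The call with miR-486 was also lost with DESeq2's size factors (adjusted p = 0.247). Leaving out HI calf A42931 or A93744 alone also ended the call with miR-451 (adjusted p = 0.141 and 0.132). The endothelial score had r = 0.527 with miR-451 and -0.434 with miR-486 (adjusted permutation p = 0.0160 and 0.0268). At library size scaling these were 0.319 and -0.232. Without A42931 and A41971, r with miR-451 was 0.534, and without A37824 and A38765, r with miR-486 was -0.276 (permutation p = 0.154). Of the mural cell miRNAs miR-143 and miR-145, 0 of 2 passed the test with miR-451 or miR-486. Of all miRNAs tested, 1.68% rose and 0.842% fell with miR-451, and 3.16% rose and 2.53% fell with miR-486. The mural cell score had r = 0.488 with miR-451, and 0.199 without A42931 and A41971.

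The relations of miR-451 with these 4 lists were weaker or of the other sign within the 9 calves of the lowest codes. There, r was -0.179 for the red cell companions, 0.263 for the leukocytes, -0.0039 for the endothelium and -0.706 for the mural cells. In the other 21 calves it was 0.733, 0.811, 0.626 and 0.653. Both A42931 and A41971 are among those 21 calves, where the SD of log2 miR-451 was 0.97 against 0.38 in the 9. The difference between the classes was not tested. Under the deposited scaling, the r of miR-486 with the first 3 lists ran from -0.672 to -0.424 over both classes.

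miR-486 had no settled sign of r with the scores of the red cell companions and the leukocytes. Its r was -0.454 with the red cell companions and -0.454 with the leukocytes (adjusted permutation p = 0.0209 for both), but at library size scaling both turned positive, at 0.151 and 0.285. Without A37824 and A38765 they were -0.299 and -0.395 (permutation p = 0.121 and 0.0379). No direction of miR-486 with either list is given for that reason. Of their members, 0 of 10 and 0 of 8 passed the test with it, against 3.16% rising and 2.53% falling of all miRNAs tested. Counts so near that share are no result about the lists. Of the striated muscle miRNAs, miR-206 was at 0 reads in every library and miR-1 was at 0.260 CPM at most, which is within the floor of 3 reads. The 4 tested of 7 muscle miRNAs, miR-133a, miR-133b, miR-208b and miR-499, had a score with r = 0.00126 with miR-486 and 0.00295 with miR-451. Of them, 0 of 4 passed the test with either. The shares over all miRNAs tested were 3.16% rising and 2.53% falling with miR-486, and 1.68% and 0.842% with miR-451. At library size scaling the r of the muscle score with miR-486 was 0.461. Its members went both ways, with r of -0.239 (miR-133a), -0.268 (miR-133b), 0.369 (miR-208b) and 0.415 (miR-499) with miR-486. With miR-451, r ran from -0.530 for miR-499 to 0.339 for miR-133b. Of 7 neuronal rows, 0 passed with miR-451 or miR-486, against the same shares of all miRNAs tested. Their r with miR-451 ran from -0.426 for miR-153 to -0.0284 for miR-9-5p. The neuron score had r = -0.131 with miR-451 and 0.262 with miR-486, and neither sign held throughout. With miR-451 it was 0.114 without A42931 and A41971, 0.206 in HI and -0.662 in MOD calves, and 0.493 in the lowest codes. With miR-486 it was 0.694 at library size scaling and -0.0276 without A37824 and A38765, the calves with the lowest and highest miR-486. miR-124a and miR-124b in it hold identical values.

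**Figure D5:**
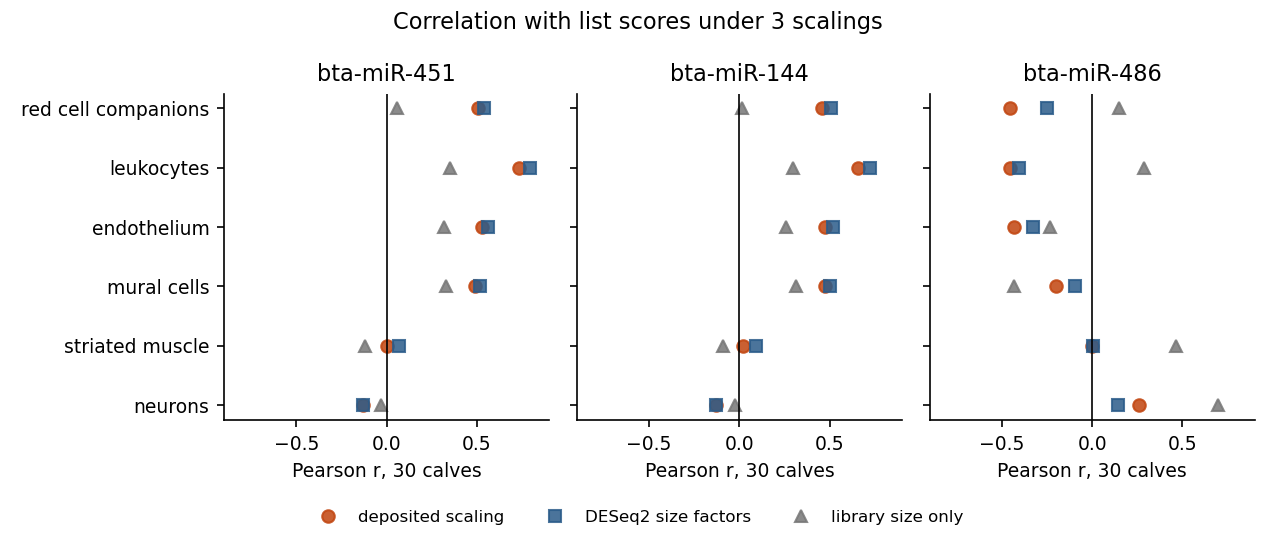
Pearson's r over 30 calves between each of the 3 miRNAs and the score of 6 lists of miRNAs of other cell types, under the deposited scaling, DESeq2's size factors and library size only. For miR-451 and miR-144 the 4 blood and vessel lists lie right of 0 under all 3 scalings, near 0 for red cell companions at library size only, and for miR-486 the first 2 lists change side with the scaling.

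Other miRNAs were also raised in the 2 calves with the most miR-451. Relative to the median of all calves, miR-451 was 5.97-fold in A42931 and 4.63-fold in A41971, miR-144 was 4.40-fold and 4.60-fold, and miR-223 was 8.07-fold and 6.28-fold. miR-143 was 1.99-fold and 3.30-fold. The leukocyte miR-142-5p was 1.19-fold and 1.06-fold, and miR-150 was 0.804-fold and 0.543-fold. Of the pituitary list, miR-200a was 56.0-fold and 336-fold, at 164.3 and 984.4 CPM, miR-183 was 32.8-fold and 233-fold, and miR-375 was 6.16-fold and 33.5-fold. Counted from the highest calf, A42931 ranked only 8 for each of these, and A41971 ranked 2, 1 and 2. miR-7, which has the highest median of that list at 4390 CPM, was 0.868-fold and 1.65-fold. With miR-451, r ran from -0.103 for miR-7 to 0.320 for miR-183. Over all calves, 0 of the 8 tested of 10 passed the test with miR-451, against 1.68% rising and 0.842% falling of all miRNAs tested. The summed level of the list ranged from 2323 to 100359 CPM in HI and from 2289 to 83974 CPM in MOD calves. With the pituitary score in the model, the slope of miR-144 on miR-451 was 0.93. HI calf A37824, which had the highest pituitary score and the lowest miR-486, had 204.3 CPM of miR-451 against the median of 266.0 CPM. The part of the pituitary miRNAs in the levels of miR-451 and miR-144 in these 2 calves was not tested.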

How the data were processed

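Per the paper's methods, adapters were cut off with Cutadapt, only reads 15 to 28 bases long were retained, other short RNAs were filtered out, and the authors counted known bovine miRNAs with miRDeep2 and Bowtie on ARS-UCD1.2. A stranded RNA kit is given in the labels, but a small RNA kit in the methods. The deposited signal values, 1 per calf and miRNA, are decimals with the form of CPM over TMM-scaled library sizes, a normalization the sources used here do not state. They were not counts, so limma replaced the count test in the main results, as the plan allowed. Whole reads were recovered from the steps between values. Between 94.5% and 97.9% of values under 200 reads were whole within 0.05, and recovered reads were rounded for edgeR and DESeq2.

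limma (lmFit, eBayes with a trend) was run on log2(CPM + 0.25), which understates changes of low miRNAs, over 476 miRNAs past edgeR's filterByExpr. Slopes had diet in the model. Correlations and diet differences were tested two-sided by permutation (100000 resamples, exact within small classes). Named are the 3 miRNAs, the 5 most like each, those called between diets, and of each list tested its most abundant, most and least like members. Others (miR-1, miR-16b, miR-124a, miR-124b, miR-133a, miR-150, miR-200a, miR-206, miR-208b, miR-375 and the pair of calves) were named after their values were seen. The members and lists were chosen with earlier results of these data known, and the class of lowest codes was found from values. Code was tested on simulated data. RefSeq names came from another build, so no coordinates are given. The versions used were limma 3.58.1, edgeR 4.0.16 and DESeq2 1.42.0 in R 4.3.3, and scipy 1.17.1 in Python 3.11.15.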

Additional observations from a re-analysis of the deposited data

How the results depend on the processing

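The call on the diets for the 3 miRNAs was the same in 13 alternatives and with each calf left out, all without a call. The log2 difference of miR-144 turned negative at library size scaling (-0.020), with the 3 left out of the library size (-0.020), with DESeq2 (-0.016) and with the pituitary score (-0.0072), and that of miR-486 with the first 2 (-0.013 and -0.013) and with the code class (-0.0083). Leaving out 1 calf gave -0.13 to 0.20 for miR-451, turning its sign in 4 of 30 cases, and -0.12 to 0.17 for miR-144, in 11 of 30. The count called between diets was 1 with DESeq2's test and 0 to 1 with a calf left out (1 without A77860 or A97854). The r of miR-451 and miR-144 stayed between 0.940 and 0.962 with a calf left out. Its call was lost only in the lowest codes (0.703), where rho was 0.817 and kept its call (permutation adjusted p = 0.0324). The r of miR-486 with miR-451 was 0.0834 in HI calves and 0.0187 in the lowest codes, and with miR-144 it was 0.194 and 0.467 there, and -0.169 to 0.0056 with a calf left out. 

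The 12 miRNAs associated with miR-451 became 3 at library size scaling, 45 with DESeq2's size factors, 26 with depth class, 104 with code class, 30 with the pituitary score and 2 without A42931 and A41971, an alternative chosen after seeing the data. With 1 calf left out there were 6 to 139: 42, 47, 27, 139, 22 and 30 without HI calves A13745, A17855, A27864, A37824, A47858 and A92928, and 6 and 34 without MOD calves A41971 and A57826. The 27 associated with miR-486 became 327, 5 and 129 with library size scaling, DESeq2's size factors and code class, and 9 without A42931 and A41971. With 1 calf left out there were 2 to 72: 9, 4, 72, 10, 71 and 8 without HI calves A27823, A27864, A31979, A37824, A37840 and A81983, and 8, 5, 9, 9, 8 and 2 without MOD calves A12937, A38765, A41971, A47874, A61965 and A73759. The causes were not tested. Library size scaling moved the median of all miRNAs in a library by -0.51 to 0.28 on the log2 scale. Counting error limits miR-144 most, at 36 reads in the shallowest case. No paired analysis was possible because each calf is on 1 diet and the labels give no shared replicate numbers.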
